A study of Mus musculus with 12 samples.

Results

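The transcripts of 10 genes typical of T cells and natural killer (NK) cells were followed through 12 tumors grown in mice that lack mature lymphocytes. They are Cd3d, Cd3e, Cd3g and Cd247, Gzma, Gzmb, Prf1 and Nkg7, and Klrd1 and Fcrl6. They were found by gene name, and all 10 are among the 22630 genes of the tables. The choice rested on measured values, since differences between doxycycline-treated and no-dox tumors were known when the genes were picked, so both comparisons with the no-dox group are given as descriptions.

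The tumors came from KCip53-1, 1 pancreatic cancer cell line made from a mouse with the alleles Ptf1a-Cre, TREp53R270H and R26rtTa/rtTa among others, in which Ptf1a-Cre acts in the pancreatic epithelium and doxycycline switches on mutant p53R270H. All hosts were NSG mice aged 8 to 10 weeks, given 500000 cells under the skin at each of 2 sites. The no-dox group (n = 4 tumors) received 0 days of doxycycline, the plus-dox group (n = 4) 36 days at 0.2 g/l in drinking water with 5% sucrose, and the off-dox group (n = 4) 33 days followed by 3 days without it. The alleles of the line and the NSG background were thus common to all 3 groups. Each mouse could carry 2 tumors and it is not known which tumors shared a mouse, so the spread between tumors may understate that between animals. The Trp53 level, in which reads of the transgene, of the graft and of the host cannot be told apart, was 40.1 to 57.4 RPKM over the 12 tumors and gave no check of the labels, with a log2 fold change of 0.04 (SE 0.11) in plus-dox against no-dox tumors.

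NSG mice carry the Prkdc scid mutation, which blocks the joining of antigen receptor genes and so the making of T and B cells, and a null allele of Il2rg, the receptor chain through which interleukin 15 keeps NK cells alive. Cytotoxic lymphocytes kill a target by releasing perforin (Prf1), which opens its membrane, and granzymes, proteases that enter the opened cell and start its death. The CD3 chains (Cd3d, Cd3e, Cd3g) and the zeta chain (Cd247) carry the signal of the T cell receptor. NK cells make little surface CD3 but use Cd247 with some receptors, and sense self molecules through receptors such as CD94 (Klrd1), while Fcrl6 is an Fc receptor-like protein known from cytotoxic lymphocytes.

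The genes lie in several places of mouse build NCBIM37 (mm9), the build of the tables. Cd3g (chr9:44777655-44788514), Cd3d (chr9:44789869-44795135) and Cd3e (chr9:44806826-44817673) are neighbors on chromosome 9, and Cd247 (chr1:167718812-167792243) and Fcrl6 (chr1:174526771-174532682) lie on chromosome 1. Gzma is at chr13:113884035-113891189, Gzmb at chr14:56877695-56881097, Prf1 at chr10:60760584-60767011, Nkg7 at chr7:50692508-50693616 and Klrd1 at chr6:129541829-129548793, and each level is that of the exons of the gene.

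Promoter sequence is shown for 3 of the genes because the same short motif was found in the promoters of all 6 members outside the CD3 complex and in those of 0 of the 4 CD3 complex genes. The motif is TGTGGT, the core bound by RUNX factors, searched on both strands from 250 bases before to 50 bases after the start of each gene model. It was 1 of 5 motifs searched and stood in 14.7% of the 22630 promoters searched in the same way. The sequences below are those of Gzmb (chr14:56881048-56881347, minus strand), the granzyme with the highest level among the members, of Prf1 (chr10:60760334-60760633, plus strand) and of Fcrl6 (chr1:174532633-174532932, minus strand), the gene with the widest difference between groups. All are of the same build, written 5′ to 3′ along the strand of the gene, with the motif or its reverse complement in capitals.
Gzmb: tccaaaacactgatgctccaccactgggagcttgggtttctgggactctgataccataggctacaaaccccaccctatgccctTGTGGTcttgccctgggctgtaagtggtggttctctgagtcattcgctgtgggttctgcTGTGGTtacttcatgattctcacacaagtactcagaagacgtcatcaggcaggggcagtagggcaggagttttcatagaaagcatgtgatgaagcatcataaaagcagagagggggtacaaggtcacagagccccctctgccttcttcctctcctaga
Prf1: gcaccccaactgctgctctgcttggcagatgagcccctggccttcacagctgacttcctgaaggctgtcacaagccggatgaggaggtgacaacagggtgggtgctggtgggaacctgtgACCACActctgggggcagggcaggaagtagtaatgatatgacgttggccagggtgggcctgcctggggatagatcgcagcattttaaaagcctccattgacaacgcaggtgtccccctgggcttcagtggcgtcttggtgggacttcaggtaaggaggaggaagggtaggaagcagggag
Fcrl6: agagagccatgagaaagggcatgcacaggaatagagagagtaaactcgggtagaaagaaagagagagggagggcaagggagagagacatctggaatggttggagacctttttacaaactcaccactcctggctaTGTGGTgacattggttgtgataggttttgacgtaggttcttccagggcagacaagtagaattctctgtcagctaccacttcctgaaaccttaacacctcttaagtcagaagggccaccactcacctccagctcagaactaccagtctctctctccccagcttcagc
The Gzmb promoter held the motif 2 times and those of Prf1 and Fcrl6 1 time each. The other members with it were Gzma, Nkg7 and Klrd1. Of 4 further motifs searched in the same windows, the ETS core AGGAAG was present in 8 of 10 members and 33.8% of all promoters, the E-box CAGNTG in 9 of 10 and 48.2%, the T-box sequence GGTGTNA in 4 of 10 and 9.5%, and the STAT sequence TTCNNNGAA in 3 of 10 and 7.9%. A match says only that the letters are there, not that a factor binds.

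The 12 libraries held 19845923 to 33137609 counted reads each. At that depth a gene with 0 counts may still lie at up to 0.0905 to 0.151 CPM, a count scaled to the counted reads of its library (the limit set by 3 counts, for counting error only). Mapped reads were inferred from the deposited counts, RPKM and exon lengths. Reads assigned to genes were 88.4 to 89.4% of this inferred total in no-dox tumors, and fewer with doxycycline, at 82.2 to 87.1% (plus-dox) and 81.1 to 85.8% (off-dox). The inferred share thus moved with treatment, and its part in the results below was not tested. Plus-dox tumor 2 and off-dox tumor 4 stood apart by their low Epcam, an epithelial adhesion gene, with 524 and 2528 counts against 3834 to 24094 in the other 10. Cdh1, also of the epithelium, was lowest in these tumors too, at 3199 and 5570 counts against 6524 to 31213. The keratins did not set both tumors apart. Krt8 and Krt18 lay within the range of the other 10 in both. Krt19 was low in off-dox tumors 3 and 4 (3638 and 4041 counts) but not in plus-dox tumor 2 (8034). Where a value of the 10 genes turned on plus-dox tumor 2 or off-dox tumor 4, this is said beside it.

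The T cell receptor genes were at the edge of detection. Where 3 values or ranges follow a gene, they are for no-dox, then plus-dox, then off-dox tumors. Summed over the 4 tumors of a group, the 4 CD3 complex genes gave 53, 108 and 82 counts, of which plus-dox tumor 2 gave 51 and off-dox tumor 4 gave 31. Rounded to whole reads, Cd3e, the chain shared by both CD3 dimers, had 1, 2, 0 and 0 counts in no-dox tumors, 3, 7, 1 and 0 in plus-dox tumors, and 0, 2, 0 and 1 in off-dox tumors. Every Cd3e value but 1 lay at or below 3 counts. Cd3d had 1 to 7, 1 to 14 and 4 to 8 counts. Cd3g had 0 to 5, 5 to 18 and 2 to 12 counts, and Cd247 had 1 to 11, 2 to 12 and 2 to 16. The highest count of Cd3d, Cd3e and Cd3g was in plus-dox tumor 2 in each case, and that of Cd247 in off-dox tumor 4.

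**Figure D1:**
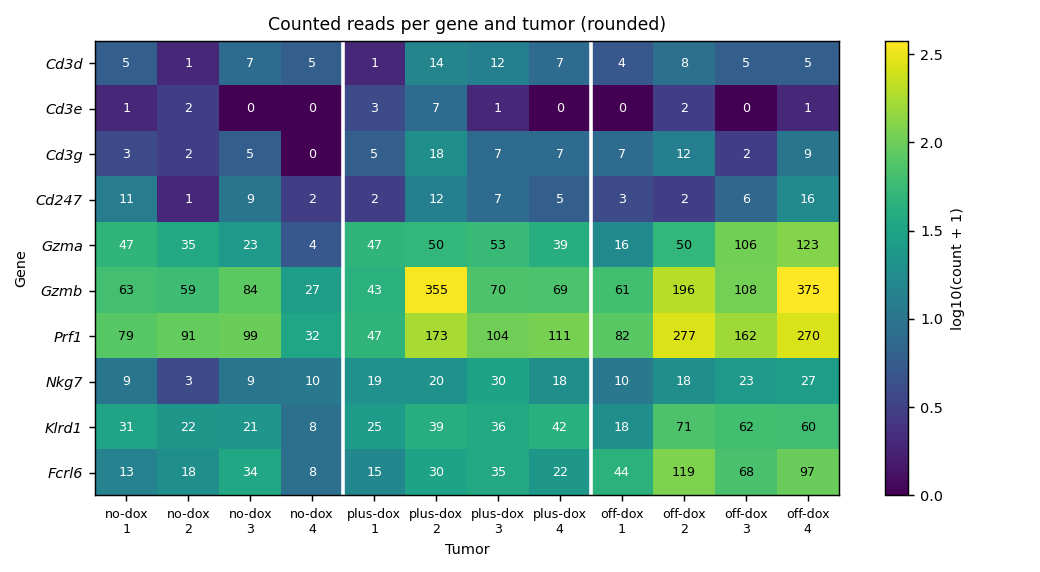
Counted reads of the 10 genes (rows) in each of the 12 tumors (columns, grouped by treatment), rounded to whole reads and colored by log10(count + 1). The CD3 complex genes stayed at 18 counts or fewer in all tumors, while Gzmb reached 375 and Prf1 277.

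The cytotoxic genes gave most of the reads. Gzma, Gzmb, Prf1 and Nkg7 together summed to 674, 1248 and 1905 counts, and Klrd1 and Fcrl6 to 155, 243 and 539. Within a tumor, the 4 CD3 complex genes made up 2.40 to 7.65% of all reads of the 10 genes, with a median of 5.85%, whereas Prf1 alone made up 22.8 to 38.8% and Gzmb 19.7 to 49.4%. Fewer cells of a type and less RNA per cell cannot be told apart in these whole-tumor libraries, and since graft and host are both mouse a read cannot be assigned to either.

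Levels between genes were compared as RPKM, the authors' reads per kilobase of exon, scaled to the mapped reads of the library. Averaged over 12 tumors (mean ± SD), the order was Gzmb 3.06 ± 2.76, Prf1 2.20 ± 1.50, Gzma 1.98 ± 1.41, Klrd1 1.50 ± 0.922, Fcrl6 0.796 ± 0.735, Nkg7 0.700 ± 0.347, Cd3g 0.221 ± 0.164, Cd3d 0.155 ± 0.0895, Cd247 0.125 ± 0.0886 and Cd3e 0.0332 ± 0.0449. Of the 9 neighboring pairs in this order, 3 differed within tumors by a two-sided exact permutation test that flips the sign of each tumor's difference. The order that set the pairs came from the same 12 tumors, and pairs further apart were not tested. Klrd1 lay above Fcrl6 in 11 of 12 tumors (adjusted p = 0.00440), Nkg7 above Cd3g in 12 of 12 (exact test, adjusted p = 0.00440) and Cd247 above Cd3e in 10 of 12 (exact test, adjusted p = 0.0161). The other 6 pairs had adjusted p-values of 0.117 to 0.656. On average the cytotoxic genes thus lay above the 4 CD3 complex genes, but among Gzmb, Prf1, Gzma and Klrd1 no neighbors differed beyond their spread.

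Perforin and granzyme B, the main lytic pair, were detected in every tumor. Prf1 was at 1.14, 1.47, 1.68 and 0.420 RPKM in no-dox tumors, 0.962, 2.58, 1.38 and 2.13 in plus-dox tumors, and 1.63, 5.58, 3.07 and 4.39 in off-dox tumors. Off-dox tumors 2, 3 and 4 were above all 8 tumors of the other groups, while off-dox tumor 1 lay within both. The group means were 1.18 ± 0.551, 1.76 ± 0.727 and 3.67 ± 1.703 RPKM (SD, n = 4), and the log2 fold change against no-dox was 0.60 (SE 0.47) in plus-dox and 1.68 (SE 0.47) in off-dox tumors.

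Gzmb had 1.31, 1.38, 2.06 and 0.514 RPKM in no-dox tumors, 1.27, 7.64, 1.35 and 1.92 in plus-dox tumors, and 1.75, 5.72, 2.97 and 8.84 in off-dox tumors. In the plus-dox group 1 tumor carried the mean of 3.04 ± 3.08 RPKM (SD, n = 4), and the other 3 lay inside the no-dox range. The log2 fold change of plus-dox against no-dox was 1.23 (SE 0.68) with all tumors and 0.20 without plus-dox tumor 2 and off-dox tumor 4, and that of off-dox against no-dox was 1.92 (SE 0.69).

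Gzma, granzyme A, was at 1.58, 1.32, 0.910 and 0.123 RPKM in no-dox tumors, 2.24, 1.74, 1.64 and 1.76 in plus-dox tumors, and 0.742, 2.35, 4.69 and 4.67 in off-dox tumors. The plus-dox tumors all exceeded the no-dox tumors, and the off-dox tumors ranged from below the plus-dox range to above both groups. Log2 fold changes against no-dox were 0.93 (SE 0.63) and 1.72 (SE 0.64) for plus-dox and off-dox tumors.

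Nkg7, a protein of cytotoxic granules, gave 3 to 10, 18 to 30 and 10 to 27 counts. Its RPKM was 0.326, 0.123, 0.385 and 0.332 in no-dox tumors, 0.979, 0.751, 1.00 and 0.872 in plus-dox tumors, and 0.501, 0.915, 1.10 and 1.11 in off-dox tumors. Neither treated group overlapped the no-dox group. The log2 fold changes were close to each other, 1.61 (SE 0.39) for plus-dox and 1.65 (SE 0.39) for off-dox against no-dox tumors.

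Klrd1, which encodes CD94 and pairs with NKG2 receptors, was at 1.05, 0.833, 0.843 and 0.249 RPKM in no-dox tumors, 1.22, 1.38, 1.13 and 1.92 in plus-dox tumors, and 0.862, 3.39, 2.80 and 2.29 in off-dox tumors. Plus-dox tumors lay above all no-dox tumors, and 3 of 4 off-dox tumors above all others. The log2 fold changes against no-dox were 0.93 (SE 0.46) and 1.68 (SE 0.46).

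Fcrl6 was highest in the off-dox group. It was at 0.204, 0.316, 0.615 and 0.112 RPKM in no-dox tumors, 0.320, 0.473, 0.493 and 0.445 in plus-dox tumors, and 0.934, 2.57, 1.39 and 1.68 in off-dox tumors, with 44 to 119 counts in the off-dox group against 8 to 35 in the other 8 tumors. The no-dox and plus-dox groups overlapped and the off-dox group lay above both. Its log2 fold change was 0.52 (SE 0.48) in plus-dox and 2.44 (SE 0.48) in off-dox against no-dox tumors, the second being among the values for which the gene was chosen.

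**Figure D2:**
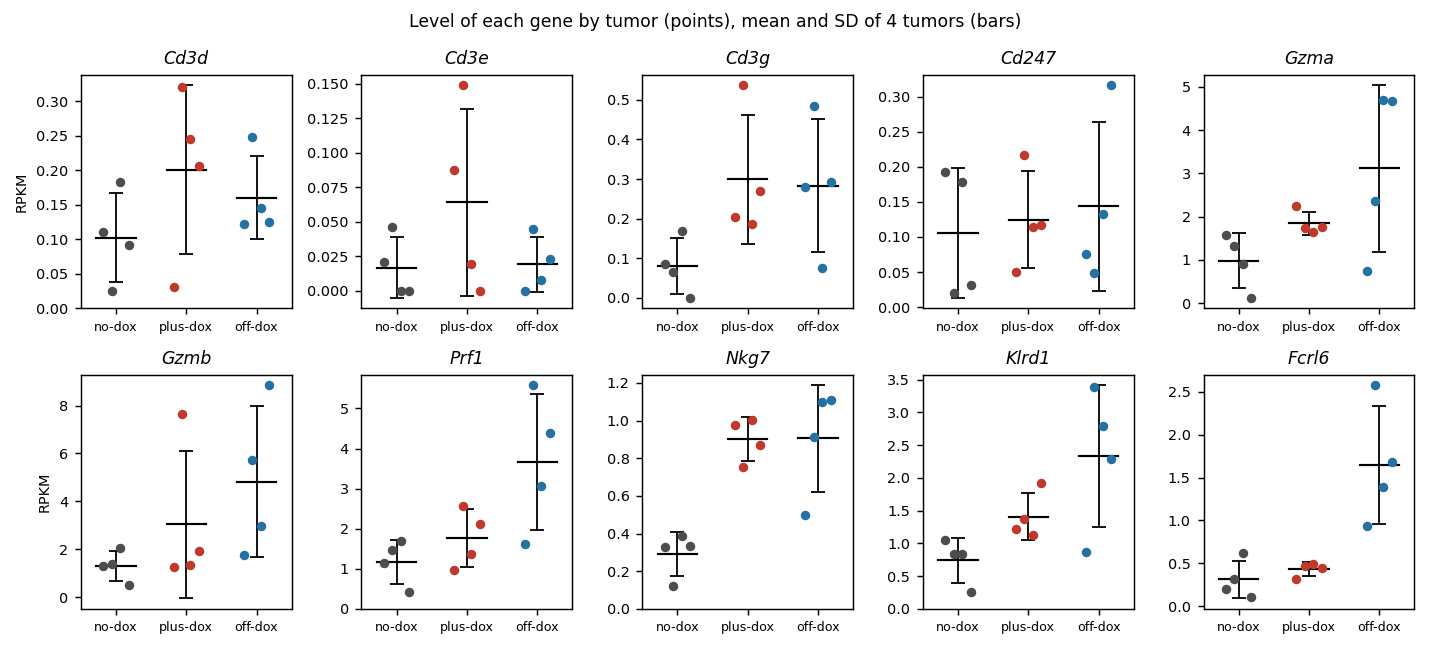
RPKM of each gene (1 panel per gene, each with its own axis) by treatment group; points are tumors, the horizontal line is the mean and the bar the SD of 4 tumors. Fcrl6 in off-dox tumors (0.934 to 2.57) sat above all other tumors, Nkg7 lay above the no-dox range in both treated groups, and 1 tumor lay far above the other 3 for Gzmb in the plus-dox group.

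Summed over the 10 genes, CPM were 7.92 ± 3.57, 15.5 ± 6.87 and 28.7 ± 12.8 (SD, n = 4). Without Gzmb they were 5.82 ± 2.60, 10.5 ± 2.24 and 20.5 ± 8.38. The CD3 complex genes alone gave 0.473 ± 0.309, 1.03 ± 0.541 and 0.930 ± 0.326. All 10 genes had a positive log2 fold change in plus-dox against no-dox tumors, with a median of 0.95, where 51.4% of all 17561 genes tested were positive and their median was 0.01. In off-dox against no-dox tumors all 10 were again positive, with a median of 1.68, against 50.7% and 0.01 over all genes. The no-dox tumors are shared by both comparisons, so the second is not independent of the first. Without plus-dox tumor 2 and off-dox tumor 4 the medians were 0.67 and 1.52.

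A gene was called where edgeR's quasi-likelihood test gave an adjusted p under 0.1 with a change over 1.5-fold and a mean RPKM over 0.25. In plus-dox against no-dox tumors 0 of 10 members were called, with a background of 0% of all genes, although 2400 genes had an unadjusted p under 0.05 and DESeq2 called 128 genes, 1 of them a member. In off-dox against no-dox tumors 3 of 10 were called, Nkg7, Klrd1 and Fcrl6, with a background of 1.34%, and DESeq2 called 6 of 10. Groups did not overlap, with the treated group higher, for 4 members in plus-dox against no-dox tumors (Cd3g, Gzma, Nkg7 and Klrd1; background 4.3%) and for 2 in off-dox against no-dox tumors (Nkg7 and Fcrl6; background 4.99%). In the other direction this held for 0 members, with backgrounds of 3.46% and 6.4%. An unadjusted p under 0.05 was reached by 2 members in the first comparison (background 13.7%) and by 7 in the second (background 20.4%). Both contrasts were used to choose the genes, so nothing is read from these counts. The calls of Nkg7, Klrd1 and Fcrl6 were lost in the fit with a replicate block and in most fits that left out 1 tumor.

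Off-dox against plus-dox tumors is the comparison for which the genes are not known to have been picked. It sets tumors after 3 days without doxycycline against tumors still receiving it. For all 10 genes, however, the values of both its groups were part of the comparisons known at the choice, and Fcrl6 was chosen for its off-dox values. A choice of genes high in off-dox tumors favors positive values here, so this comparison is also given as a description. Here 7 of 10 genes had a positive log2 fold change, with a median of 0.47, against 49.8% positive and a median of -0.001 over all genes tested. With edgeR 0 genes of 17561 were called (background 0%), 537 had an unadjusted p under 0.05 (3.06%), and DESeq2 called 6, of which 0 were members. Among the members 2 had an unadjusted p under 0.05, Fcrl6 and Prf1, and for the same reason nothing is read from this.

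Fcrl6 was higher in off-dox than in plus-dox tumors by a log2 fold change of 1.91 (SE 0.47), with all 4 off-dox tumors above all 4 plus-dox tumors (background 0.552%). It did not pass edgeR's quasi-likelihood test (adjusted p = 1.0), and since its off-dox values were among those that chose it, nothing is read from the separation. Prf1 had a log2 fold change of 1.08 (SE 0.47; unadjusted p = 0.0385, adjusted p = 1.0, edgeR). The remaining cytotoxic genes had log2 fold changes of 0.79 (SE 0.62) for Gzma, 0.76 (SE 0.45) for Klrd1, 0.69 (SE 0.66) for Gzmb and 0.03 (SE 0.37) for Nkg7. The Gzmb value turned on single tumors, at 1.72 without plus-dox tumor 2, 0.19 without off-dox tumor 4 and 1.22 without both. The CD3 complex genes had -0.35 (SE 0.62) for Cd3d, -1.53 (SE 1.16) for Cd3e, -0.07 (SE 0.68) for Cd3g and 0.24 (SE 0.76) for Cd247.

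**Figure D3:**
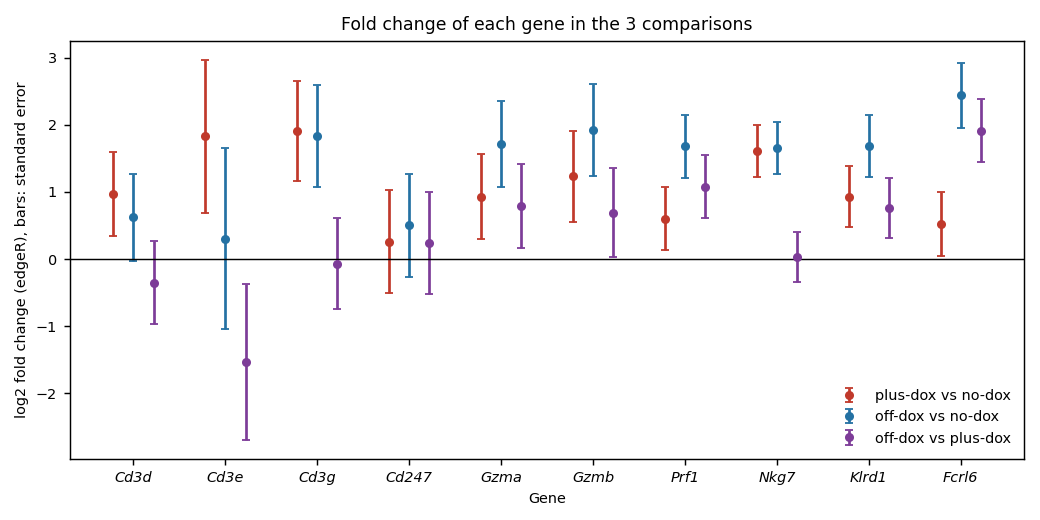
Log2 fold change of each gene (edgeR, TMM-scaled counts) in the 3 comparisons, with bars of 1 standard error; values above 0 are higher in the group named first. Among the 10 genes, Fcrl6 has the largest off-dox against plus-dox value (1.91), whereas Nkg7 has 0.03 there with 1.61 and 1.65 against no-dox.

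Ratios between members within a tumor do not depend on how many reads the lymphoid genes took in all. The RPKM of Gzmb over that of Prf1 was 0.902 to 1.32 in 10 tumors, but 2.97 in plus-dox tumor 2 and 2.02 in off-dox tumor 4, the 2 tumors with the lowest Epcam. These 2 tumors also had the highest counts of Lat, an adaptor of T cell receptor signaling that other blood cells use too, with 116 and 63 against 13 to 45 in the other 10. They also led in Klrc1, the NKG2A partner of CD94, with 56 and 182 against 9 to 36, although 38.6% of the 50-base windows of Klrc1 occur in Klrc2 or Klrc3 too, so its counts are uncertain. Lat and Klrc1 were picked here after their values were seen, and other genes of their lists went both ways. Cd244 led in these 2 tumors too (543 and 289 against 66 to 179 counts). Lck (68 and 40 against 29 to 71) and Sh2d1b1 (119 and 123 against 120 to 232) did not. By contrast the ratio of Fcrl6 to Prf1 set only the off-dox group apart, at 0.180 to 0.366, 0.184 to 0.358 and 0.384 to 0.574. The no-dox and plus-dox ranges overlapped, and the off-dox tumors did not overlap the other 8. The gap was narrow, from 0.366 in no-dox tumor 3 to 0.384 in off-dox tumor 4. This ratio contains the gene chosen for its off-dox level and is a description.

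**Figure D4:**
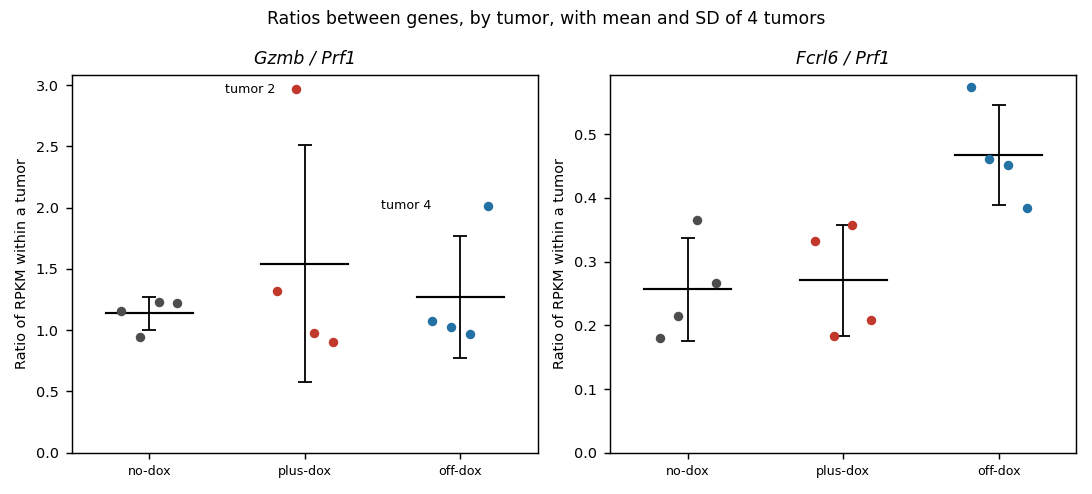
Ratios of RPKM within each tumor, Gzmb over Prf1 (left) and Fcrl6 over Prf1 (right), by group with the mean and SD of 4 tumors. In the left panel plus-dox tumor 2 (2.97) and off-dox tumor 4 (2.02) stand above the others (0.902 to 1.32), and in the right panel the off-dox tumors (0.384 to 0.574) stand above the other 8.

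Across the 12 tumors, log2 levels of the 6 cytotoxic and receptor genes moved together, with a median Pearson r of 0.77 over 15 pairs (0.53 to 0.91). Between these 6 and the CD3 complex genes the median r was 0.44 over 24 pairs (0.02 to 0.77). The tumors share groups and the CD3 counts are small, so these values only describe. The 5 other genes most like the sum of the 10 members among 14542 genes were Dmxl2 (r = 0.963), Fam49a (0.951), Ints2 (0.948), Gzmc (0.947) and Il2rb (0.943). Gzmc is a further granzyme and Il2rb the beta chain of the receptor for interleukins 2 and 15. Dmxl2, Fam49a and Ints2, with higher r than either, are in none of the marker lists read further below. For Fcrl6 they were Gzmf (r = 0.959), Gzmg (0.946), Itgb1bp2 (0.901), 1700071M16Rik (0.899) and the NK receptor gene Klra5 (0.894), over the same 12 tumors. Of these only Gzmf and Gzmg are in the marker lists.

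Those granzymes belong to a cluster on chromosome 14 of mm9 that also holds Gzmb. Gzmc, Gzmd, Gzme, Gzmf and Gzmg were far more abundant than the 2 granzymes among the members, with mean levels over 12 tumors of 34.8, 36.9, 42.1, 32.7 and 29.1 RPKM. Their summed RPKM was 21.9 to 113 times that of Gzmb, with a median of 78.0. In CPM these 5 genes summed to 109 ± 57.3, 166 ± 20.5 and 301 ± 132 (SD, n = 4).

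Gzmf was at 15.9, 15.6, 26.1 and 6.26 RPKM in no-dox tumors, 16.6, 23.2, 19.7 and 31.3 in plus-dox tumors, and 27.0, 96.4, 60.5 and 53.9 in off-dox tumors. Like Fcrl6 it was higher in the off-dox group, with a log2 fold change of 1.93 (SE 0.43, adjusted p = 0.083, edgeR) against no-dox and 1.41 (SE 0.42, adjusted p = 1.0, edgeR) against plus-dox tumors. Gzmg had 1.63 (SE 0.41, adjusted p = 0.090, edgeR) and 1.33 (SE 0.41, adjusted p = 1.0, edgeR) in these comparisons, and its off-dox tumors lay above the no-dox tumors, while off-dox tumor 1 (27.6 RPKM, 617 counts) was level with plus-dox tumor 4 (27.6 RPKM, 638 counts). Gzmf and Gzmg were found by their likeness to Fcrl6 over the same tumors. That choice favored genes high in off-dox tumors, so nothing is read from their p-values. Gzmk and Ifng, a granzyme and a cytokine of activated T and NK cells, were close to absent, with 0 counts in 4 and 11 of 12 tumors.

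The granzymes of this cluster are near-identical in parts, so reads could be split between them. The longest stretch of coding sequence shared by Gzmb and Gzmc was 49 bases, just short of the 50-base read, and that shared by Gzmd and Gzme was 96 bases. Both are shown because they set which counts are uncertain (reference coding sequences of NCBIM37, 5′ to 3′).
Gzmb and Gzmc: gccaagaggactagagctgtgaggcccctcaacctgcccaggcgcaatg
Gzmd and Gzme: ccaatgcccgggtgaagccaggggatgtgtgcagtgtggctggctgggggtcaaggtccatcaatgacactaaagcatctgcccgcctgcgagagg
The first run lies at bases 352 to 400 of the Gzmb coding sequence and the second at bases 410 to 505 of that of Gzmd, counted from the first base of the start codon. Of all 50-base windows of its transcripts, Gzmb shared 0.0% with any other coding gene, as did Gzma, Prf1, Nkg7, Klrd1, Cd3e and Cd3g, while Cd3d shared 0.3% and Fcrl6 1.0%. Only exact matches were counted, so windows that nearly match another gene, as around the 49-base run of Gzmb and Gzmc, are not covered. Gzmd shared 21.9%, Gzmg 19.8%, Gzme 19.3%, Gzmf 7.5% and Gzmc 4.0%, so their single values are uncertain where their sum is less so. Cd247 shared 60.8% with Pou2f1, through reference transcripts that reach base 167807407 of chromosome 1, beyond the end of the counted gene model at 167792243. Pou2f1 is not among the annotated genes that overlap this counted model. Whether any of the shared windows lie in the counted exons was not tested. The Cd247 model does overlap 2 noncoding genes, from which its reads cannot be told apart where they overlap in unstranded libraries. The other 9 members overlap 0 annotated genes.

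**Figure D5:**
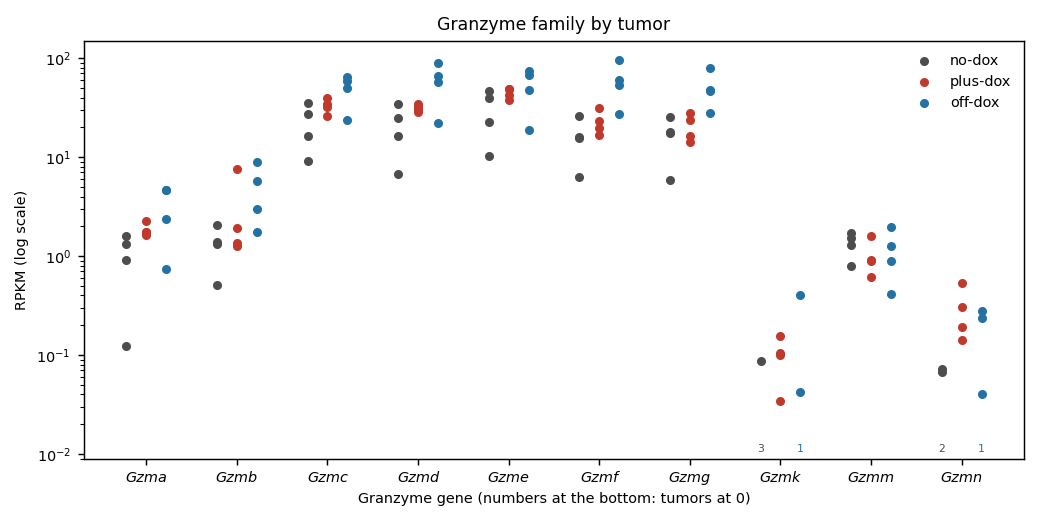
RPKM (log scale) of the granzyme genes in each tumor, colored by group; numbers along the bottom give tumors at 0, which a log axis cannot show. Gzmc to Gzmg lie above Gzma and Gzmb in every group, and the off-dox tumors reach 96.4 for Gzmf.

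Other lymphoid genes were read from lists of markers, written with earlier results of these data known. The genes called in them below belong to the 235 called in off-dox against no-dox tumors, 1.34% of all genes tested. That number fell to 0 with a replicate block and without any 1 of 7 tumors. Of 17 further T cell receptor signaling genes tested, 15 had a positive log2 fold change in plus-dox and 15 in off-dox against no-dox tumors, with medians of 0.74 and 0.56. Cd4, which macrophages can also make, rose in off-dox against no-dox tumors (log2 fold change 0.73, SE 0.19, adjusted p = 0.093, edgeR; background of genes called higher 1.03%). Lck, a kinase of T and NK cells, was at 0.673 RPKM on average, whereas Cd8b1, the beta chain of the CD8 coreceptor, had 0 to 5 counts and Trat1 0 counts in 10 of 12 tumors.

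Of 24 NK receptor genes, 21 and 23 were positive in plus-dox and off-dox against no-dox tumors, with medians of 0.46 and 0.87. Only Klri2, a lectin-like receptor chain, was called in this list (off-dox against no-dox, log2 fold change 1.25, SE 0.30, adjusted p = 0.088, edgeR, background of genes called higher 1.03%). Klra8, Sh2d1b1 and Klrb1b had the highest levels of this list, at 4.52, 4.17 and 2.90 RPKM. The Klra8 level rests on 418 counted exon bases and 36 to 93 counts, and its sharing of reads with other Klra genes was not tested. The genes Ncr1, Klrk1, Eomes and Klrb1c, picked after their values were seen because they are in common use to define NK cells, had reads in every tumor. Ncr1 had 11 to 90 counts, Klrk1 27 to 97, Eomes 12 to 70 and Klrb1c 12 to 38. Others did not reach this in every tumor. Klra1, Klrc3 and Klri1 of the NK receptor list fell to 0 counts, with highest counts of 47, 7 and 6. Tbx21, from the same list as Eomes, had 1 to 7.

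Among 10 other effector genes 9 were positive in each treated group against no-dox, with medians of 0.59 and 1.43. Gzmf and Gzmg were the 2 called, both higher in off-dox against no-dox tumors (background of genes called higher 1.03%). Of 12 lymphoid transcription factor and cytokine receptor genes, 8 and 9 were positive, with medians of 0.25 and 0.51 and 0 called. Il2rg, whose null allele the hosts carry, was at 3.01 to 14.1 RPKM, and Prkdc at 1.17 to 2.14 RPKM. Of 4 Fc receptor-like genes tested beside Fcrl6, 3 and 4 were positive (medians 0.78 and 0.42) with 0 called. Among them Fcrl1 had 274 counts in plus-dox tumor 2 and 10 to 19 in the other plus-dox tumors. Fcrls, the most abundant of them at 48.4 RPKM, had a log2 fold change of 0.15 (SE 0.36) in off-dox against no-dox tumors, against 2.44 for Fcrl6. The 4 adaptors shared with myeloid cells had medians of 0.18 and 0.25. Syk, a kinase downstream of such adaptors, was called higher in off-dox against no-dox tumors (log2 fold change 0.60, SE 0.15, adjusted p = 0.088, edgeR, background of genes called higher 1.03%).

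The 9 B cell and precursor genes tested had medians of -0.07 and 0.24 and sums of 10.4 to 22.7, 7.24 to 17.2 and 10.8 to 16.9 CPM. Pax5, which sets B cell identity, was at 0 counts in all 12 tumors, Ms4a1 had 0 to 3, while Blk, Cd79b and Cd22 led the list with 1.92, 1.26 and 1.14 RPKM. Lymph node stroma had 4 genes tested with medians of 0.96 and 0.52, and Ccl21a and Ccl19 at 0 in all tumors. Summed lymph node stroma genes were 11.3 to 44.6, 32.4 to 74.9 and 13.4 to 37.9 CPM, with Cxcl13, a chemokine that attracts B cells, at 26.3 RPKM on average and the next gene, Glycam1, at 0.113. Neither list had a gene called, and their part in the results was not tested.

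Markers of other tissues also differed in level between tumors, and their part in the results was not tested. The ranges of their sums mostly overlapped between groups. Against no-dox tumors the exceptions were simple epithelium in plus-dox and epidermis in off-dox tumors, both lower without overlap. Neutrophil genes, given below, were higher without overlap in plus-dox tumors. The 5 skeletal muscle genes were positive in 5 of 5 cases against no-dox, with medians of 1.50 and 2.84 and sums of 10.6 to 213, 187 to 720 and 16.8 to 1972 CPM. The 5 simple epithelium genes were positive in 0 of 5 cases in both treated groups, with medians of -0.69 and -0.69 and sums of 4299 to 5550, 2508 to 3823 and 2053 to 4900 CPM. The 4 adipocyte genes had medians of -0.46 and -1.42, with sums of 1.42 to 728, 2.55 to 442 and 8.69 to 189. The 8 mast cell genes, whose granules also hold proteases, had medians of 0.17 and -0.62, with sums of 42.3 to 142, 53.4 to 209 and 42.1 to 87.3. Epidermis (4 genes tested) had medians of -0.58 and -0.76 and sums of 35.4 to 97.0, 18.6 to 49.7 and 22.4 to 34.6. Krt14 was called lower in off-dox against no-dox tumors (log2 fold change -1.72, SE 0.43, adjusted p = 0.090, edgeR, background of genes called in either direction 1.34%).

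The 8 macrophage genes had medians of 0.09 and 0.16, with sums of 2590 to 3958, 3390 to 3952 and 3130 to 5642 CPM. The 8 dendritic cell genes had medians of 0.28 and 0.41, with sums of 37.3 to 63.5, 46.7 to 58.1 and 56.1 to 64.6, and 0 genes were called in either list. The 7 neutrophil genes had medians of 0.66 and 0.47 and sums of 27.7 to 37.2, 49.7 to 61.9 and 35.3 to 71.6. Of them 2, Csf3r and Cxcr2, were called higher in off-dox against no-dox tumors (log2 fold changes 0.78 and 0.90, adjusted p = 0.083 for both, edgeR, background of genes called higher 1.03%). Against plus-dox tumors the off-dox medians were 0.23 for NK receptors, 0.24 for other effectors, -0.23 for T cell receptor signaling, -0.79 for mast cells, 1.08 for muscle and -0.96 for adipocytes, with 0 genes called in any list.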

How the data were processed

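Total RNA of 12 tumors was made into polyA, unstranded libraries and read as 50-bp single ends. The submitters' processing notes name CASAVA 1.8.2, Bowtie 0.12.8, TopHat 1.4.1 and bedtools 2.16.2. The authors mapped reads to mm9, condensed RefSeq isoforms to 1 unstranded model per gene and deposited an estimated count per gene, the exonic coverage expressed in reads and not normalized. How duplicate and multi-mapping reads were treated is not given in the sources used here. Of the deposited count values 92.1% were multiples of 1/52 of a read (tolerance 0.01). The authors also deposited RPKM, scaled to exon length and mapped reads.

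Counts were rounded to whole numbers and tested with edgeR 4.0.16 (R 4.3.3) in 1 fit of the 3 groups, with TMM scaling, a quasi-likelihood test, genes with at least 10 summed counts (17561), and Benjamini-Hochberg adjustment over all of them. Called genes changed by over 1.5-fold at an adjusted p under 0.1, had a length over 250 bp and averaged over 0.25 RPKM, as in the study's methods. Correlations used log2 CPM with a prior count of 2. All 10 members passed the filter on summed counts, and 2 of them, Gzmb and Prf1, had 10 counts in every tumor. The fits were tested on simulated data. DESeq2 1.42.0, RLE scaling, other filters, 8-tumor fits, a replicate block, a stricter limit and leaving out each tumor were the alternatives.

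The members and all lists were chosen with earlier results of these data known. Named genes are the members, Trp53, Il2rg and Prkdc, the called and the 3 most abundant genes of each of 16 marker lists, and the 5 genes most like the summed members and most like Fcrl6 over the tumors. Of these, those that bear on a result were printed. Epcam, Cdh1, Ncr1, Klrk1, Eomes, Tbx21, Klrb1c, Klrc1, Klra1, Klrc3, Klri1, Cd244, Cd8b1, Trat1, Ifng, Gzmk, Fcrl1 and genes at 0 were named after their values were seen. P-values take tumors as independent, although tumors may share a mouse. Items withheld from the text are not reported here.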

Additional observations from a re-analysis of the deposited data

Results flagged for a closer look

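In 195 groups of 4 tumors over 64 genes and the members' sum, 10 values lay far from the other 3 tumors of their group (Dixon's ratio of gap to range above its 95% limit, which chance passes in about 1 in 20 groups). Over 195 groups that rate gives about as many values as were found. The values below are RPKM. Gzmb in plus-dox tumor 2 was 7.64, with the next tumor at 1.92. The same tumor stood apart for Lat at 2.87 against 0.739 and for Tnnt3, a muscle gene, at 56.6 against 24.7. Off-dox tumor 4 stood apart for Lat at 1.702 against 0.666, for Lor, an epidermal gene, at 5.19 against 1.42, and for Glycam1 at 0.107 against 0. The remaining values were Lck in no-dox tumor 1 at 0.630 against 0.525, Fcrla in no-dox tumor 4 at 0.203 against 0.518, Cd22 in no-dox tumor 2 at 1.23 against 0.859, and Csf3r in plus-dox tumor 1 at 5.52 against 6.26.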

How the results depend on the processing

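The number of genes called in off-dox against no-dox tumors, 235, rested on the settings. It was 615 with DESeq2, 122 without a filter, 365 with at least 10 counts in every tumor, 3 with only the 8 tumors compared, and 0 at an adjusted p under 0.05. Leaving out 1 tumor gave 0 to 789 genes. It gave 789 without off-dox tumor 1, 19 without plus-dox tumor 3, 1 without no-dox tumor 3 and 0 when the tumor left out was no-dox 1, 2 or 4, plus-dox 4, or any off-dox tumor but the first. Without plus-dox tumor 2 and off-dox tumor 4, a setting chosen after seeing the data, it was 471. In plus-dox against no-dox tumors DESeq2 called 128 and leaving out 1 tumor 0 to 3. In off-dox against plus-dox tumors these were 6 and 0 to 1. The causes were not tested.

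The replicate block left 0 calls in off-dox against no-dox tumors. Replicate numbers did not pair the tumors, as same-numbered tumors had a mean r of -0.088 over 12 pairs (-0.449 to 0.566) against 0.043 over 36 others, and 2 of 12 tumors correlated best with their own number.

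The median over the members stayed positive under the 19 alternatives of each comparison, at 0.67 to 1.24, 1.399 to 1.89 and 0.04 to 0.89 for plus-dox against no-dox, off-dox against no-dox and off-dox against plus-dox. Single signs turned for genes with few counts when 1 tumor was left out. Cd247 in plus-dox against no-dox reached -0.15 to 0.68, Cd3e in off-dox against no-dox -0.70 to 1.23 and Cd247 there -0.27 to 0.92. In off-dox against plus-dox Cd247 ran from -0.53 to 0.65, Cd3g from -0.44 to 0.39 and Nkg7 from -0.10 to 0.23. Without plus-dox tumor 2 and off-dox tumor 4, Cd247 had -0.15, -0.26 and -0.11 in the 3 comparisons, and off-dox against plus-dox gave 0.045 for Cd3d, 0.36 for Cd3g and -0.17 for Nkg7. Libraries of this depth leave the CD3 complex genes at 0 to 18 counts.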
